A study of Mus musculus with 15 samples.

Results

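The genes described here encode the protein parts of the splicing machinery and the proteins that coat nuclear RNA. They were chosen by name from a table of 53023 mouse genes, of which 21963 were typed as protein coding. A protein-coding gene was taken where its symbol began with Sf3a, Sf3b, Snrp, Srsf, Lsm and a digit, Prpf or Hnrnp, which gave 78 genes. The rule used names and no measured value. It also took 5 LSm genes that are not parts of the spliceosome (Lsm10, Lsm11, Lsm12, Lsm14a and Lsm14b), and these were kept.

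The study measured polyadenylated RNA in mouse 2-cell embryos of the ICR strain in which filamentous actin in the nucleus had been perturbed. All embryos came from in vitro fertilization, were cultured in KSOM medium and were lysed 32 hours after insemination in pools of 5. Where mRNA was injected, this was done 2 hours after insemination. The 6 libraries form 3 pairs of 2 pools, called A, B and C (libraries A1, A2, B1, B2, C1 and C2), and for these libraries the titles and the injected mRNA given in the labels contradict each other. Pair A was titled Wt, for wild-type actin, but annotated as non-injected. Pair B was titled R62D but annotated as injected with actinWT-HA-NLS, which is wild-type actin with an HA tag and a signal for import into the nucleus. Pair C was titled as a non-injected control but annotated as injected with actinR62D-HA-NLS, whose R62D change keeps actin from polymerising. Both readings give the same pairs, so every comparison is made between pairs, and the injected agent is given under both readings. Each library is a pool, so differences between single embryos are not seen, and nothing in the labels ties the pools of a pair to different matings. The p-values below therefore measure the spread between these pools, which may be technical. The other 9 libraries of the series were not analysed here.

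A spliceosome is built from small nuclear ribonucleoproteins, each an RNA held by a ring of Sm proteins, or of LSm proteins for U6. The U2 particle brings the SF3a and SF3b complexes to the branch point, and the U4/U6.U5 particle brings most of the Prpf proteins. SR proteins bind exons and help the machinery to find splice sites, whereas hnRNPs bind the transcript more widely and often act against them. At the 2-cell stage the mouse embryo degrades RNA stored by the oocyte and starts broad transcription of its own genome, so a pool's mRNA holds both sources. In such pools, fewer cells of a kind and less RNA per cell cannot be told apart.

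Assigned reads, recovered from the deposited values, numbered 907210 to 1555431 per library, and 1 read in a gene of 2 kb was worth 0.321 to 0.551 FPKM (fragments scaled to gene length and library depth). The 10 markers of 2-cell embryos, such as Zscan4c and Zfp352, were all present, and their FPKM summed to 760.3 in A2 at the lowest and 1885 in B2 at the highest. The 10 oocyte markers summed to 222.3 (C2) to 466.1 (B1) FPKM. Of 13 cumulus cell markers, 5 were at 0 in every library, Amhr2 was at 2.75 (C2) to 8.03 (C1), and the sum was 4.47 to 11.5 FPKM. Of 8 sperm markers, Prm1, Tnp2, Odf1 and Smcp were at 0 and the sum was at most 2.89 FPKM. Of 6 blood markers, Hbb-bt and Hbb-bs were at 0 and the sum was 9.11 to 81.6 FPKM. The globin genes Hba-a1, at 4.75 (C2) to 42.3 (A1), and Hba-a2, at 4.13 (C2) to 38.5 (A1), were present in every library. Of 7 markers of the blastocyst, Cdx2 and Sox17 were at 0, Tfap2c was at 7.43 to 11.6 FPKM, and the sum was 10.2 to 19.9 FPKM. Krt18 was at 6.58 FPKM (11 reads) in B2 and at most 1.58 (C2) elsewhere. Krt8 (4 reads) and Gata3 (10 reads) were also highest in B2, whereas Tfap2c was highest in A2 and Gata6 in A1. On 9 Y-linked genes there were 0 reads in B2 and 107.0 to 311.25 in each of the others.

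Of the 78 genes, 73 had a mean of at least 1 FPKM and were tested. The 5 that did not were Lsm11, Prpf19, Prpf40b, Srsf12 and Hnrnpul1. Over the 78 genes the median of the mean level was 19.2 FPKM, against 0.427 FPKM over all protein-coding genes and 5.87 FPKM over the 8936 protein-coding genes that reached 1 FPKM. A mean of at least 10 FPKM was reached by 54 of the 78 genes (69.2%), compared with 15.3% of protein-coding genes. By role group, the median level was highest for the 8 Sm core genes (45.8 FPKM), followed by the 4 U1 and U2 proteins (37.5), the 11 SR proteins (32.3), the 9 SF3a and SF3b subunits (23.1), the 13 LSm genes (19.6), the 20 hnRNPs (16.0) and the 13 Prpf genes (5.13). This order of the groups depends on the gene length used, as given below. The plot of member levels shows the spread within each group.

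**Figure D1:**
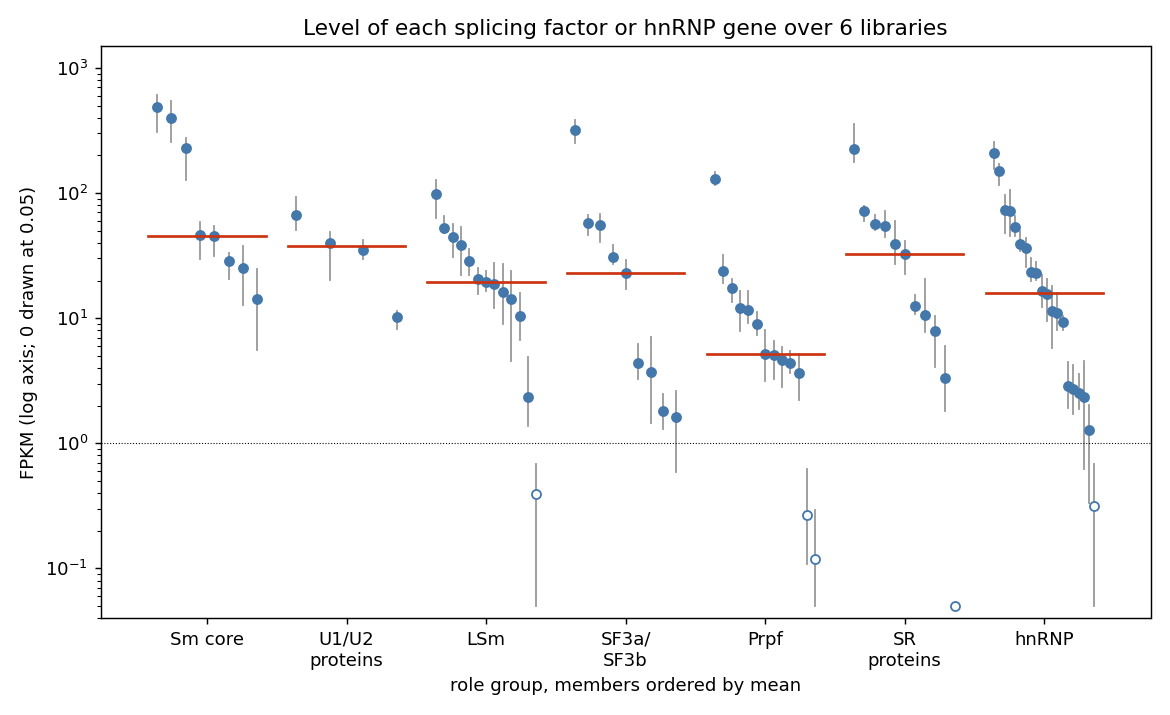
Mean FPKM of each of the 78 genes over 6 libraries (points, log axis) by role group, with the lowest and highest library as a grey line and the group median as a red bar. Open points are the 5 genes below 1 FPKM (dotted line); Srsf12, at 0 in every library, is drawn at 0.05.

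Levels between genes depend on the length each value is divided by. The length in the deposited table was in many cases longer than the longest coding transcript of the gene in GENCODE M21, by 6.14-fold for Snrpc and 5.20-fold for Lsm8. Divided by that transcript instead, the median over the 78 genes was 28.4 in place of 19.2 on the FPKM scale, an alternative chosen after seeing the data. Orders between genes and between role groups are given by the table's length, and several of them turn with the transcript length. They are therefore a description of the deposited values. With the transcript length the U1 and U2 proteins had a higher median than the Sm core. The median of SF3a and SF3b then lay below those of the LSm genes and the hnRNPs. Across the 73 tested genes longer genes had lower FPKM (Spearman's rho of -0.34 between table length and mean FPKM, across genes of the same libraries, which are not independent replicates). The same rho over all 8936 protein-coding genes tested was -0.22.

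**Figure D2:**
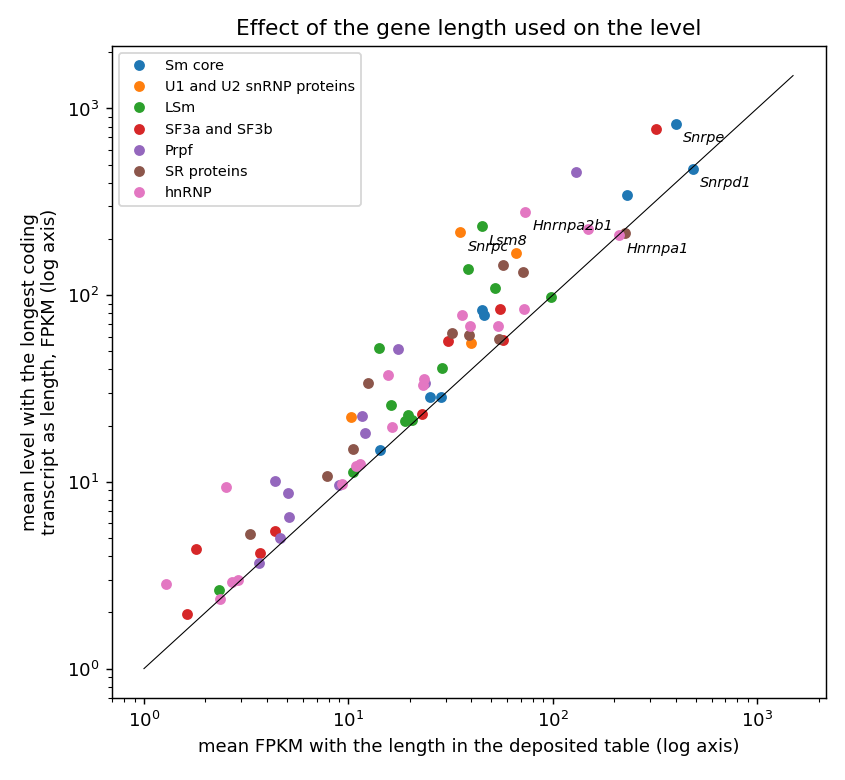
Mean level of the tested genes with the length of the deposited table (x axis, log) and with the longest coding transcript in GENCODE M21 (y axis, log), coloured by role group. Points above the diagonal have a table length longer than that transcript; Snrpc and Lsm8 lie farthest above it.

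The Sm core is the 7-membered ring that sits on the snRNA of U1, U2, U4 and U5. Its genes fell into 3 abundant and 5 less abundant ones. Snrpd1, which encodes SmD1, averaged 484 FPKM and ranked 89 among protein-coding genes. Its level was 510.1 and 613 in pair A, 438 and 308 in pair B, and 438 and 593 in pair C, where here and below the first value of a pair is that of replicate 1. Snrpe (SmE) averaged 402 FPKM, with 391 and 515 in pair A, 353 and 257 in pair B, and 355 and 539.5 in pair C. Snrpg (SmG) averaged 231 FPKM, with 263 and 217 in pair A, 258 and 128 in pair B, and 276 and 244 in pair C. In all 3 genes library B2 was the lowest. The other ring members were lower, with 46.2 for Snrpb, 45.3 for Snrpd2, 28.5 for Snrpf and 25.1 for Snrpd3. Although the ring holds these proteins in equal number, Snrpd1 was 17.0 times Snrpf (13.1 to 22.0 over the 6 libraries), and 16.6 times per longest coding transcript. The order of Snrpd1 and Snrpe turns with the length used, with 472 for Snrpd1 and 824 for Snrpe per longest coding transcript, and so does that of Snrpb (78.7) and Snrpd2 (83.6).

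The value of Snrpe has to be read with that of a copy, the processed pseudogene Snrpert, since reads of the gene can fall on either. The FPKM listed for Snrpert was 496 and 761 in pair A, 456 and 370.5 in pair B, and 416 and 721 in pair C. These values are higher than those of Snrpe itself, but the table length is 279 bases for Snrpert and 1372 for Snrpe. In recovered reads Snrpert was below Snrpe, with 123.5 (B2) to 237.5 (A2) against 420.5 (B2) to 790 (A2). Both genes were lowest in B2. How many of these reads came from each locus was not tested.

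Sequence shared with other genes was frequent among the 78 genes. At least 1 stretch of 50 bases was identical to a stretch of another annotated gene in 64 of them, and in 21 the shared stretches made up over 10% of the transcripts' stretches. The largest shares were 89.5% for Snrpf (chiefly with Ccdc38), 61.9% for Hnrnpf, 45.3% for Sf3b4, 39.5% for Srsf4, 28.2% for Hnrnpa1, 27.1% for Hnrnpa3 and 26.5% for Snrpn. In the deposited values, fractions of a read occur. The 12 genes with fractional reads in all 6 libraries all held shared stretches (median 17.2%). Of the 17 genes with whole reads in all 6 (whole to the nearest 0.01 read), 9 held none (median 0%). Levels of the genes with large shares are uncertain for the single gene.

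Snrpn, an imprinted gene whose product SmN can replace SmB, was the lowest of the Sm genes at 14.3 FPKM. Its values were 8.18 and 9.19 in pair A, 21.2 and 16.9 in pair B, and 24.7 and 5.53 in pair C. Pair A was low and pair B high, whereas C1 held the highest and C2 the lowest value of all. Snrpb, which encodes SmB, was 29.6 and 50.5 in pair A, 33.2 and 54.2 in pair B, and 51.4 and 58.6 in pair C, and exceeded Snrpn in 6 of 6 libraries (3.23-fold on average, 1.56 to 10.6).

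The U1 and U2 proteins were measured at 66.5 FPKM for Snrpa1 (U2 A'), 39.8 for Snrpb2 (U2 B''), 35.3 for Snrpc (U1 C) and 10.3 for Snrpa (U1 A). Snrpa and Snrpb2 are paralogues that bind a stem loop of U1 and of U2, respectively, and Snrpb2 was the higher in 6 of 6 libraries (3.87-fold, 2.06 to 5.72). Measured against counting error, Snrpa was the steadiest of the genes with at least 100 reads. Its variance between libraries was 0.379 times that expected from counting whole reads. The median was 5.17 for 66 such genes and 4.7 for 5665 protein-coding genes of like read number. Snrpa, however, had fractional reads in all 6 libraries and 20.2% of its stretches shared, so the expectation for whole reads need not hold for it. On the log2 scale its SD over the libraries (0.153) was above those of Hnrnpa3 (0.13), Srsf5 (0.133) and Prpf38a (0.135). Snrpc has a table length far above its coding transcript, so that it passes both Snrpb2 (55.2) and Snrpa1 (169) when the transcript length is used (217 on that scale).

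Among the LSm genes, Lsm2 to Lsm8 form the ring of U6 snRNA, and Lsm1 replaces Lsm8 in the cytoplasmic ring that acts in mRNA decay. Lsm8 averaged 44.9 FPKM and Lsm1 19.6, with Lsm8 higher in 6 of 6 libraries (2.29-fold, 1.28 to 3.08, and 10.3-fold per coding transcript). Lsm2 to Lsm7, common to both rings, had means from 10.5 (Lsm6) to 38.4 FPKM (Lsm2). Lsm10 and Lsm11 both belong to the U7 particle that cuts histone pre-mRNA. By the table's length Lsm10 was the highest of the group at 98.2 FPKM, but per longest coding transcript (98.2) it lay below Lsm8 (233), Lsm2 (139) and Lsm14a (109.0). Lsm11 was the lowest by either length at 0.396 FPKM and had 18 reads in all and 0 in A1, where 0 allows up to 3 reads or 0.465 FPKM. Lsm14a, a translational repressor of cytoplasmic RNA granules, averaged 52.3 FPKM and was 22.5 times its paralogue Lsm14b (2.33 FPKM, 9.93 to 42.6 over libraries).

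SF3a and SF3b recognise the branch point, and their tested subunits had the widest range of the role groups (197-fold between the highest and the lowest). Sf3b6, the subunit known as p14 that touches the branch-point adenosine, averaged 320.4 FPKM with 304 and 356 in pair A, 386 and 250.5 in pair B, and 264 and 362 in pair C. The scaffold subunit Sf3b1 averaged 30.9 FPKM (27.3 to 38.5), and the small subunit Sf3b5 57.4. At the low end were Sf3b3 at 1.80 FPKM (1.31 to 2.47) and Sf3a2 at 1.63 FPKM. The level of Sf3b6 was 178 times that of Sf3b3 by either length (131 to 272 over libraries by the table's). Sf3a3 averaged 55.3 FPKM, 34.0 times Sf3a2 and 12.6 times Sf3a1. Sf3a2 had 30.66 reads over the 6 libraries.

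The Prpf group had the lowest median and 1 gene above 100 FPKM. Prpf38a, a protein of the tri-snRNP that acts when the spliceosome is activated, averaged 131 FPKM, with 135 and 123 in pair A, 122 and 116 in pair B, and 142 and 147 in pair C, a 1.27-fold range. Its paralogue Prpf38b averaged 4.38 FPKM, 29.8-fold lower. Prpf39, a U1-associated protein, reached 17.5 FPKM. Prpf8, the large protein at the catalytic centre, averaged 3.67 FPKM, and Sf3b1 was 8.43 times higher (5.98 to 12.7). Prpf19, a ubiquitin ligase at the centre of the complex named after it, had only 13.5 reads in all (0.269 FPKM). Prpf40b had under 3 reads in every library. The proteins of the U4/U6 particle Prpf3 (11.6 FPKM), Prpf4 (4.62) and Prpf31 (5.06), the U5 protein Prpf6 (5.13) and the kinase Prpf4b (8.97) lay in the middle of the group.

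Of the SR proteins, Srsf7 was the highest at 227 FPKM, with 209.9 and 227 in pair A, 176 and 356 in pair B, and 188 and 203 in pair C. B2 stood apart at the top and B1 was the lowest. Srsf7 exceeded its paralogue Srsf3 in 6 of 6 libraries (7.01-fold, 5.87 to 8.58, and 3.41-fold per coding transcript). Srsf10, active in its dephosphorylated form as a repressor of splicing, averaged 71.5 FPKM (60.1 to 79.1) and Srsf5 57.0 (50.3 to 66.5), an order that turns per longest coding transcript (133 for Srsf10 and 145 for Srsf5). Srsf1, the prototype of the family, averaged 54.6 FPKM. Srsf4 was the lowest of the tested ones at 3.31 FPKM, with 39.5% of its stretches shared. Srsf12, the closest relative of Srsf10, had 0 reads in all 6 libraries, which allows up to 3 reads or 0.613 (C1) to 1.05 FPKM (C2) in each.

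The hnRNPs were led by Hnrnpa1, which binds splicing silencers, at 211 FPKM, and by Hnrnpc, which binds uridine tracts, at 149 FPKM. Hnrnpa1 was 155 and 217 in pair A, 216 and 205 in pair B, and 217 and 254 in pair C. Hnrnpa1 was 2.88 times its paralogue Hnrnpa2b1 by the table's length, but 0.757 times by the longest coding transcript, so their order is not settled by these values. The same holds for Hnrnpc, at 226 against 211 for Hnrnpa1 per longest coding transcript. Hnrnpa3 was far below these 3 with 9.35 FPKM, and was also among the steadiest, at 0.527 times the variance expected from counting whole reads. Like Snrpa, it had fractional reads in all 6 libraries, and 27.1% of its stretches were shared. In the D group, Hnrnpab (72.0 FPKM) and Hnrnpdl (39.3) exceeded Hnrnpd (2.71) 26.6-fold and 14.5-fold. In the F and H group the order was Hnrnpf (53.8), Hnrnph1 (15.6) and Hnrnph2 (11.4) in 6 of 6 libraries, the gap between the last 2 being as small as 1.00-fold. Hnrnpl, a reader of CA repeats, was the lowest tested hnRNP at 1.28 FPKM, with its paralogue Hnrnpll at 2.51. Per longest coding transcript Hnrnpa0 (2.36) lay below Hnrnpl (2.83). Between these lay Hnrnpk (36.1 FPKM), Hnrnpu (23.4), which also binds DNA at the nuclear scaffold, Hnrnph3 (23.2) and Hnrnpm (16.4), while Hnrnpr (2.88) and Hnrnpa0 (2.36) were among the low ones. Hnrnpa0 rested on 43 reads and was 0.747 and 4.01 in pair A, 2.07 and 0.625 in pair B, and 2.16 and 4.53 in pair C, so that its libraries differed within each pair. Hnrnpul2 averaged 10.9 FPKM, whereas Hnrnpul1 had 22 reads in all and 0 in 3 libraries, where 0 allows up to 0.310 to 0.382 FPKM.

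Library B2 stood apart in 3 of the role groups. For each gene the deviation of a library from the gene's mean over the 6 libraries was taken on the log2(FPKM + 1) scale. Over the Sm core the median deviation was 0.06 in A1, 0.22 in A2, -0.12 in B1, -0.55 in B2, 0.07 in C1 and 0.26 in C2. Over the LSm genes it was -0.51 in B2 and between -0.00069 and 0.19 elsewhere. The SR proteins went the other way, with 0.39 in B2, -0.26 in B1 and between -0.04 and 0.06 in the other libraries. B2 was the lowest library for 6 of 8 Sm genes and 8 of 12 tested LSm genes (18.5% of all genes tested) and the highest for 7 of 10 tested SR genes (19.5% of all genes tested). The median over all genes tested was 0.03 in B2. Among the SR proteins, Srsf9, which binds exonic enhancers, was 9.98 and 8.12 in pair A, 8.13 and 20.5 in pair B, and 7.78 and 8.67 in pair C. Srsf2, which activates exons through G-rich and C-rich sites, was 38.0 and 27.7 in pair A, 29.3 and 59.4 in pair B, and 53.0 and 27.1 in pair C. Srsf3 was 32.3 and 31.8 in pair A, 22.5 and 41.5 in pair B, and 31.9 and 33.9 in pair C. B2 was the highest library in these 3 genes, but C1 came close to it in Srsf2, and 20.7% of the stretches of Srsf2 were shared with other genes. Srsf10, Srsf5 and Srsf1 did not have their highest value in B2. Among the LSm genes, Lsm10 was 128 and 97.7 in pair A, 103 and 63.0 in pair B, and 110.4 and 86.5 in pair C. Lsm8 was 51.2 and 38.6 in pair A, 45.9 and 30.7 in pair B, and 46.1 and 56.7 in pair C, and B2 was the lowest in both. The cytoplasmic ring member Lsm1 was an exception, with 16.6 and 16.5 in pair A, 21.2 and 23.9 in pair B, and 18.8 and 20.3 in pair C and its highest value in B2. Of the Sm genes, Snrpb and Snrpn were not lowest in B2. B2 is also the library with the highest sum of 2-cell markers and no Y-linked reads. The median deviation of 79 ribosomal protein genes was -0.20 in B2 and -0.17 in A1. The part of these features in the result was not tested. Summed over the Sm core, FPKM was 829 in B2 against 1194 to 1555 in the other libraries, and over the SR proteins it was 665 in B2 against 418 to 523. Most of that difference in the SR sum lay in 1 gene, Srsf7, at 356 in B2 and 176 (B1) to 227 (A2) elsewhere.

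**Figure D3:**
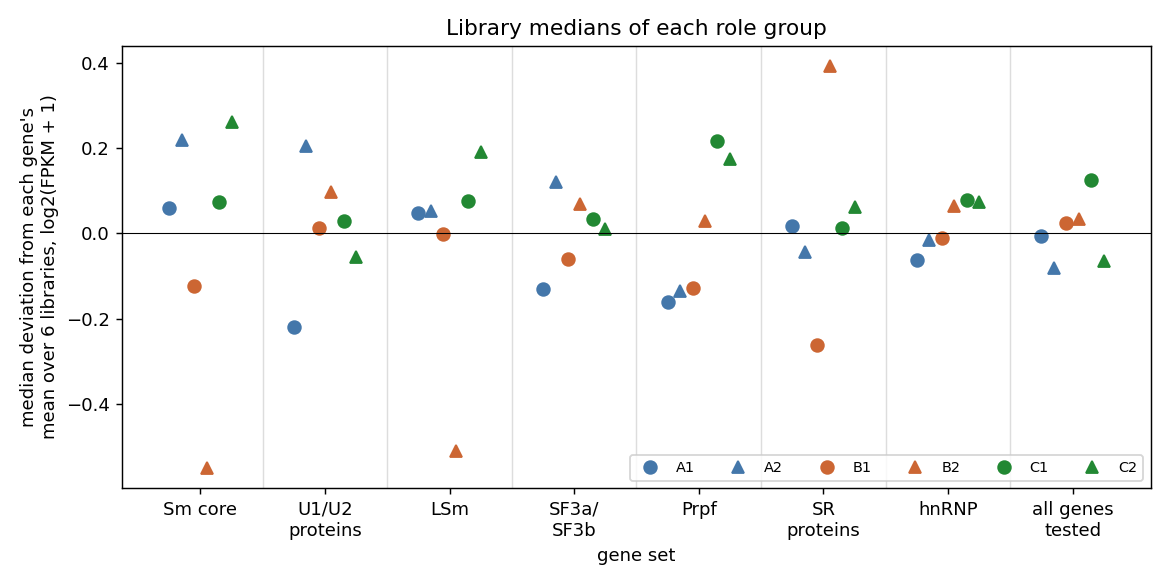
Median deviation of each library from the gene means, in log2(FPKM + 1), for the tested genes of each role group and for all genes tested; circles are replicate 1 and triangles replicate 2 of pair A (blue), B (orange) and C (green). B2 lies at -0.55 for the Sm core, -0.51 for the LSm genes and 0.39 for the SR proteins, and near 0 for all genes.

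Pairs C and B were compared first. Under the titles this sets non-injected embryos against R62D, and under the annotation R62D against wild-type nuclear actin. With limma and the Benjamini-Hochberg method at 0.05, 0 of 73 genes passed (percentage called among all genes tested: 0%), and every adjusted p among them was 1. By limma-voom, run on recovered reads, 0 passed in this and in both other comparisons. At an unadjusted p below 0.05, Snrpb2 was higher in C (1.64% of all genes were higher by that rule) and no member was lower (2.22%). The pairs did not overlap in 23 genes that were higher in C and 5 that were lower, against 15.5% and 14.8% of all genes tested. The median difference of the 73 genes was 0.20 on the log2 scale, with 50 of 73 above 0. Over all genes tested the median was 0, with 49.9% above 0.

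Snrpb2 (chr2:143063039-143072853, plus strand, mm10, as for the coordinates below) was the member with the lowest p in that comparison. Its FPKM was 47.2 and 46.5 in pair A, 31.0 and 20.2 in pair B, and 44.8 and 49.0 in pair C. Both libraries of B lay below all 4 others. The difference of C minus B was 0.88 ± 0.32 (SE, log2 scale; limma, unadjusted p = 0.0278, adjusted p = 1). It was 0.58 without B2. After it came Lsm4, a U6 ring protein, at 15.4 and 25.0 in pair A, 13.7 and 12.1 in pair B, and 19.2 and 27.6 in pair C, with a difference of 0.79 ± 0.37 (SE). Snrpd2 (SmD2) was 42.9 and 53.8 in pair A, 38.8 and 31.2 in pair B, and 54.4 and 51.0 in pair C, a difference of 0.58 ± 0.30 (SE). In both genes the libraries of B lay below those of C, and the adjusted p from limma was 1. Lsm3, also of the U6 ring, had the largest difference of the 4 at 1.05 ± 0.58 (SE), from 24.0 and 9.42 in pair A, 12.6 and 4.56 in pair B, and 14.6 and 19.7 in pair C. It rested on B2 and was 0.40 without that library and 1.69 without B1.

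The members that were lower in C with no overlap were led by Snrpa1, with 55.0 and 80.5 in pair A, 64.8 and 92.2 in pair B, and 55.7 and 50.7 in pair C. Its difference was -0.53 ± 0.33 (SE; limma, unadjusted p = 0.151, adjusted p = 1), and -0.28 without B2. Lsm12 (-0.25), Lsm1 (-0.20) and Hnrnpa3 (-0.21) followed, each within its standard error of 0. The U2 proteins Snrpa1 and Snrpb2 thus stood on opposite sides of 0, in neither case past the threshold.

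By role, the median difference of C minus B was 0.49 for the Sm core (7 of 8 genes above 0), 0.35 for the LSm genes (10 of 12), 0.28 for the Prpf genes (8 of 11) and 0.14 for SF3a and SF3b (7 of 9; 0.23 with a pseudocount of 0.1). For the hnRNPs it was 0.16 (11 of 19), a sign that turned without B1 (-0.11) and without C1 (-0.0028). For the SR proteins it was -0.0007 (5 of 10), with -0.33 without B1 and 0.23 without B2. Its sign was kept in 10 of 17 alternatives, among them several that leave the value unchanged by construction, such as leaving out A1. The SR median was above 0 with the filter at 5 FPKM (0.10), median scaling (0.05) and limma-voom (0.01). The same was seen without C1 (0.08) and without C2 (0.06). For the 4 U1 and U2 proteins the median was -0.09. The Sm core value depended on single libraries, with 0.26 without B2, 0.28 without C2 and 0.73 without B1. That of the LSm genes was 0.10 without B2 and 0.66 without B1. Both kept their sign under median scaling and quantile normalization.

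Pairs C and A were compared next. The titles make this non-injected embryos against wild-type actin, and the annotation makes it R62D against non-injected embryos. Again 0 of 73 genes passed (0% of all genes), and no adjusted p among them was below 1. At an unadjusted p below 0.05, Prpf18 and Hnrnph2 were higher in C (1.67% of all genes) and no member was lower (1.34%). Pairs did not overlap in 20 genes higher in C and 4 lower, against 16.5% and 10.4% of all genes. The median difference was 0.14, with 49 of 73 above 0, against 0.06 and 56.5% over all genes.

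Prpf18 (chr2:4622058-4652113, minus strand) encodes a factor of the second step of splicing. Its FPKM was 9.13 and 7.92 in pair A, 9.68 and 13.3 in pair B, and 15.7 and 16.6 in pair C. Both libraries of C were above all others, and those of B lay between. The difference of C minus A was 0.85 ± 0.33 (SE; limma, unadjusted p = 0.037, adjusted p = 1), and it stayed between 0.72 and 0.94 with libraries left out. Hnrnph2 (chrX:134601179-134607060, plus strand), an hnRNP of G-rich sequences, was 8.64 and 5.73 in pair A, 12.9 and 11.2 in pair B, and 18.0 and 11.7 in pair C. The libraries of A were the lowest. The difference was 0.94 ± 0.38 (SE; limma, unadjusted p = 0.0402, adjusted p = 1), 0.65 without C1 at the lowest and 1.24 without C2 at the highest. A share of 15.9% of its stretches was identical to another gene, chiefly to a processed pseudogene.

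Prpf31, which joins U4/U6 to U5 in the tri-snRNP, was 4.32 and 3.29 in pair A, 4.80 and 5.00 in pair B, and 6.38 and 6.59 in pair C, a difference of 0.65 ± 0.36 (SE). Hnrnph1, the paralogue of Hnrnph2, was 14.98 and 9.49 in pair A, 18.2 and 12.3 in pair B, and 18.1 and 20.6 in pair C, a difference of 0.65 ± 0.37 (SE) that was 0.34 without A2. The 2 H genes thus had the same order of pairs A and C, without passing the test. On the lower side were Sf3a3 (-0.24 ± 0.29, SE), Hnrnpa3 (-0.17 ± 0.33), Prpf39 (-0.15 ± 0.32) and Srsf7 (-0.16 ± 0.36), none beyond its standard error.

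The role groups with the largest medians of C minus A were the Prpf genes at 0.32 (10 of 11 above 0, 7 of them with no overlap) and the hnRNPs at 0.23 (16 of 19, 7 with no overlap). Of all genes tested, 16.5% were higher in C with no overlap. The Prpf and hnRNP medians stayed between 0.24 and 0.42, and between 0.17 and 0.30, respectively, in every alternative tried. The LSm median was 0.16, but 0.08 without A1, 0.09 without A2, -0.03 without C2 and -0.08 without A2 and C2 together. The Sm core (0.04), SF3a and SF3b (0.04) and the SR proteins (0.02) had medians below the 0.06 of all genes, and all 3 turned sign under median scaling. The U1 and U2 proteins were at -0.03, and at 0.05 without A2. In the libraries of C the Prpf genes deviated by 0.22 (C1) and 0.17 (C2), and in those of A by -0.16 and -0.13, which the plot of library medians shows.

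Pairs B and A share libraries with both comparisons above, so their values are not independent of them. The titles read this as R62D against wild-type actin, and the annotation as wild-type actin against non-injected embryos. None of 73 genes passed (0% of all genes), with adjusted p values of 0.991 or more. At an unadjusted p below 0.05, Snrpb2 and Snrpd3 were lower in B (1.79% of all genes), and no member was higher (2.77%). Pairs did not overlap in 12 genes higher in B and 16 lower, against 18.8% and 12.8%. The median was -0.02, with 36 of 73 above 0, against 0.07 and 55.1% over all genes. Without B1 the members' median was 0.16.

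Snrpb2, with the values given above, differed by -0.88 ± 0.32 (SE; limma, unadjusted p = 0.0277, adjusted p = 0.991) and by -0.58 without B2. Snrpd3 (chr10:75517551-75537381, plus strand) encodes SmD3. It was 37.8 and 28.6 in pair A, 18.6 and 12.7 in pair B, and 19.1 and 33.6 in pair C. Both libraries of A exceeded those of B, and C1 lay near B while C2 lay near A. The difference was -1.05 ± 0.39 (SE; limma, unadjusted p = 0.0312, adjusted p = 0.991), with -1.31 to -0.79 when libraries were left out. Snrpd1 differed by -0.61 ± 0.30 (SE) and Lsm2 by -0.68 ± 0.37 (SE), which without B2 were -0.35 and -0.41. Lsm2 was 39.3 and 49.8 in pair A, 33.1 and 22.3 in pair B, and 32.8 and 53.2 in pair C. On the higher side stood Srsf4 at 0.87 ± 0.45 (SE; 0.50 without B2), from 1.82 and 2.13 in pair A, 3.22 and 5.99 in pair B, and 4.24 and 2.48 in pair C. Hnrnph2 (0.70 ± 0.38, SE; 0.44 without A2), Snrpn (1.05 ± 0.61, SE) and Hnrnpk (0.49 ± 0.30, SE) followed. Hnrnpk, a binder of C-rich sequences, was 25.8 and 32.0 in pair A, 38.4 and 43.5 in pair B, and 41.6 and 35.1 in pair C.

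By role, the medians of B minus A were -0.42 for the Sm core (2 of 8 above 0) and -0.32 for the LSm genes (3 of 12). They were 0.25 for the Prpf genes (8 of 11), 0.20 for the hnRNPs (12 of 19), 0.14 for the U1 and U2 proteins, -0.08 for SF3a and SF3b and -0.0022 for the SR proteins. Without B2 the Sm core was at -0.26, the LSm genes at -0.18, the Prpf genes at 0.03 and the hnRNPs at -0.0037. Without B1 the Sm core was at -0.71, the LSm genes at -0.53 and the SR proteins at 0.41. The value for the Prpf genes was 0.15 without A2, and that for the hnRNPs 0.03 without A1. The medians of the U1 and U2 proteins and of SF3a and SF3b turned sign with single libraries, to -0.08 without A1 for the former and to 0.04 without A2 and 0.13 without B1 for the latter. For the SR proteins B1 and B2 deviated in opposite directions.

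**Figure D4:**
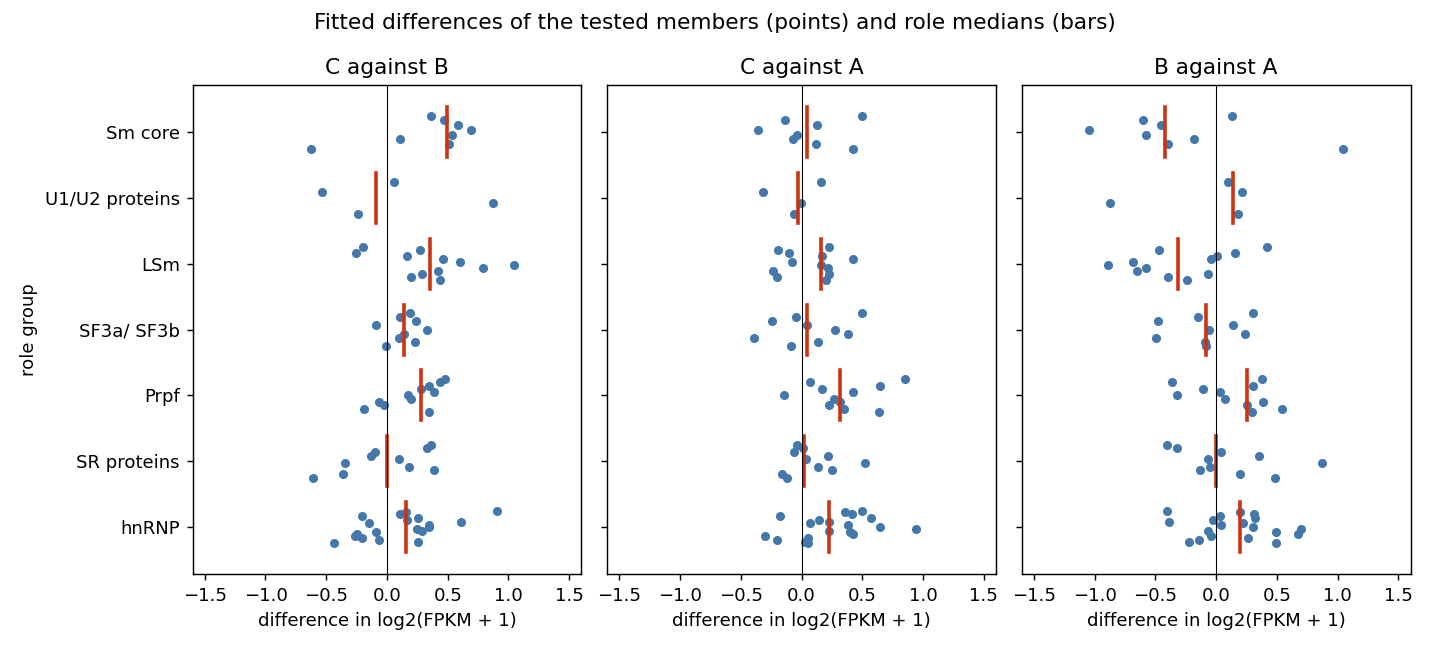
Fitted difference of each tested gene in log2(FPKM + 1) (points) by role group, for C against B, C against A and B against A, with the role median as a red bar. No gene passed the test in any panel; the Sm core bar lies at 0.49, 0.04 and -0.42 from left to right.

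**Figure D5:**
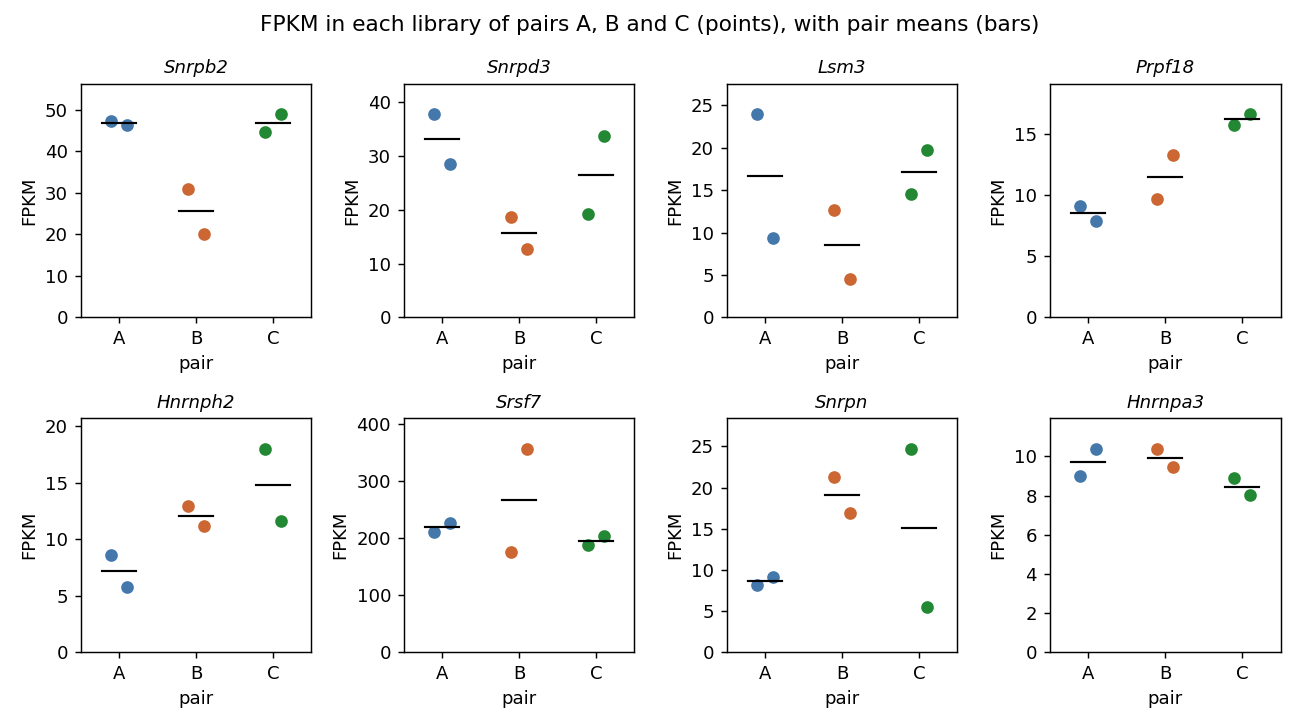
FPKM of 8 members in each library of pairs A, B and C (points), with the mean of the pair as a bar (n = 2) and axes starting at 0. Snrpb2 is low in both libraries of B, Prpf18 is highest in both libraries of C, and Srsf7 and Snrpn differ more within a pair (B and C, respectively) than between pair means.

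Other genes of the pathway lay outside the name rule and were listed as context, 138 genes in 3 lists (139 rows, 1 symbol having 2 identifiers), of which 124 rows were tested. In each of the 3 comparisons 0 of them passed the adjusted threshold. At an unadjusted p below 0.05 there were 2 in each comparison, or 1.61% for both directions together. By the same rule, 1.64% of all genes tested were higher and 2.22% lower in C against B. The shares of all genes were 1.67% and 1.34% in C against A, and 2.77% and 1.79% in B against A. In C against B, Syf2, of the complex around Prpf19, was higher at 86.1 and 73.1 in pair A, 63.5 and 54.9 in pair B, and 113 and 99.3 in pair C (0.83 ± 0.28, SE; limma, adjusted p = 1). U2surp, a U2-associated SR-like protein, was lower at 5.67 and 7.94 in pair A, 10.6 and 8.18 in pair B, and 4.70 and 3.99 in pair C (-0.95 ± 0.37, SE). In C against A the corresponding genes were Taf15 (0.87 ± 0.36, SE) and Casc3 (-1.07 ± 0.39, SE), and in B against A they were Nono (0.81 ± 0.34, SE; 0.48 without B2) and Txnl4a (-0.88 ± 0.33, SE). Casc3, of the exon junction complex, was 4.65 and 5.09 in pair A, 3.77 and 4.57 in pair B, and 2.07 and 1.54 in pair C. Its 2 libraries of pair C lay below all others.

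Among the partner genes the highest levels were those of Magoh (1096 FPKM) and Rbm8a (256), which form a pair in the exon junction complex, Snu13 (812), which binds a kink turn of U4, and Phf5a (339), the SF3b subunit with a name outside the rule. Snrnp200, the helicase that unwinds U4 from U6, was at 3.59 FPKM, Snrnp70 of U1 at 2.29 and Eftud2, the GTPase partner of Prpf8, at 0.365. The 2 subunits of U2AF, which recognise the end of the intron, were at 137 FPKM (U2af1) and 0.73 FPKM (U2af2). Slbp, the histone stem-loop binder that works with Lsm10 and Lsm11, was at 91.7 FPKM.

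The start regions of the genes were compared as a feature that the name rule did not use. RefSeq promoters on GRCm38.p6, from 250 bases before to 50 after the start, were matched by symbol for 67 of the 78 genes, with 89 promoters in all. The letters CCGGAAG, the core bound by ETS factors, occurred on either strand in 29.2% of these promoters. They occurred in 19.1% of the 8475 promoters of protein-coding genes with at least 1 FPKM and in 8.86% of all 32851 promoters. TATAAA, the TATA box, occurred in 7.87%, 7.99% and 13.6%, respectively, GGGCGG in 67.4%, 60.2% and 35.7%, and CCAAT in 46.1%, 39.9% and 37.4%. The median GC content was 60.3%, 60.0% and 52.7%. Each motif was searched on both strands, and matches of different motifs may overlap. The member promoters were thus close to those of other expressed genes in GC content and TATA boxes. As examples, 100 bases upstream are given for the most abundant SF3b subunit, an SR protein with 2 matches, and Prpf19, which was nearly undetected, with CCGGAAG or its reverse complement in capitals. Windows are chr12:4817444-4817543 (plus strand), chr12:80945399-80945498 (plus strand) and chr19:10895131-10895230 (plus strand). Those of Srsf5 and Prpf19 end at the RefSeq start, and that of Sf3b6 ends 64 bases upstream of it.
Sf3b6: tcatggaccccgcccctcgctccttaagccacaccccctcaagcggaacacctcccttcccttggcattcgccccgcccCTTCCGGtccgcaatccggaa
Srsf5: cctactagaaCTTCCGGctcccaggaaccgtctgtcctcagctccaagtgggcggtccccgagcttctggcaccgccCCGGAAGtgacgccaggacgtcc
Prpf19: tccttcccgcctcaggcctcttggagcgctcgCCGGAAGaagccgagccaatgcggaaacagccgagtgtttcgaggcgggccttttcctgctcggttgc
A match of letters is a description and not a measured site.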

How the data were processed

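Polyadenylated RNA was measured in 6 libraries of pooled 2-cell embryos, the 6 columns of the deposited FPKM table made by the authors. Per the submitters' processing notes, reads were handled with Trimmomatic, Trim Galore, cutadapt, STAR and featureCounts on build mm10; of versions, gene annotation, strand setting and shared reads, nothing is given in the sources used here. Per the labels' protocols, spike-in RNA was added, but the table has 0 rows for it and values were not scaled to it. FPKM times length gave reads in steps of 0.01 (100% of values, tolerance 0.0002 read), of which 55.58% to 57.88% were whole in each library (tolerance 0.001). Depth was 907210 to 1555431 assigned reads; a count of 0 allows up to 3 reads. Such limits cover counting error alone, as PCR copies remain.

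Pairs were compared with limma 3.58.1 in R 4.3.3 on log2(FPKM + 1), which understates changes of low genes, for 13443 genes that averaged 1 FPKM or more, with 1 mean per pair, all 6 libraries and a variance trend. P was adjusted over all genes (Benjamini-Hochberg, threshold 0.05). The procedure was tested on simulated data, but only with changes larger than any fitted difference given here. Its power for differences as small as those of the members was not tested. Genes named are the 3 highest and the lowest tested of each role group, up to 4 per comparison and direction by p among genes whose pairs do not overlap (3 for partner genes), fixed paralogue sets, and genes with under 3 reads everywhere. Other members and partners given with their levels were named after their values were seen. The values of 1 gene that the rule names and 1 sequence comparison are not reported here. The members, lists and rules were chosen with earlier results of these data known. Shared stretches of 50 bases and transcript lengths came from GENCODE M21, promoters from RefSeq. Alternatives were another pseudocount (0.1), no filter or one at 5 FPKM, quantile normalization, median scaling, no variance trend, only the compared pairs, the replicate number as a block, protein-coding genes alone, limma-voom on the reads recovered, and leaving out libraries.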

Additional observations from a re-analysis of the deposited data

How the results depend on the processing

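In all alternatives 0 members and 0 partner genes passed the adjusted threshold, and the smallest adjusted p of a named gene was 0.863. All differences of named genes kept their direction. Neither these differences nor the role medians can change with the block, without a variance trend, or with protein-coding genes or the compared pairs alone. The same holds where the library left out belongs to the pair not compared. A filter on low values cannot change the difference of a single gene either. With the replicate number as a block the members' medians were 0.197 (C against B), 0.143 (C against A) and -0.024 (B against A). They equal those without it by construction, as each pair holds 1 library of each replicate number. In that fit 0 genes passed. The numbers are shared between titles only. Same-numbered libraries deviated together at r = 0.098 (A and B), 0.203 (A and C) and 0.00499 (B and C), so they were not treated as pairs. Under median scaling the members' median was 0.0822 in C against A and -0.117 in B against A. Leaving out libraries gave 0.191 to 0.234 in C against B, 0.1 to 0.158 in C against A and -0.0753 to 0.162 in B against A, the last value without B1. The median level per longest coding transcript was 28.4, chosen after seeing the data; the length changes in that alternative by its construction. Of 357 role medians under alternatives, 47 moved by more than the within-pair spread. Of 102 counts at an unadjusted p below 0.05, 75 stayed within the 1.5-fold limit. These counts lay between 0 and 3, and each count above 0 in the main fit changed in some alternative. Where 1 library of a pair was left out, the other was assumed to vary like the rest. At these depths, genes such as Lsm11, Prpf19 and Hnrnpul1 rest on 22 reads or fewer, and a difference between pairs was not detectable for them.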

Other observations

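Apart from Snrpert, the table holds 4 processed pseudogenes named after members. Hnrnpa1l2-ps2 was listed at 13.2 and 15.3 FPKM in pair A, 14.8 and 18.8 in pair B, and 16.8 and 22.7 in pair C. Hnrnpa1l2-ps was listed at 2.23 (B1) to 5.04 FPKM (B2). Of the copies named after Snrpc, Snrp1c-ps2 was at 0 in every library, and Snrp1c-ps1 had 1.2 reads in A1, 1.17 in B1 and 0 elsewhere.

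The variance between libraries relative to counting error differed among the role groups. Among genes with at least 100 reads its median was 12.6 for the 8 Sm core genes and 3.28 for the 11 Prpf genes. The highest single values were 53.4 for Srsf7, 43.8 for Snrpe, 34.7 for Sf3b6 and 30.0 for Hnrnpab. These ratios grow with the number of reads, and no test of a difference between groups was made. Hnrnpab, an hnRNP of the D family, was 45.5 and 68.0 FPKM in pair A, 48.4 and 99.6 in pair B, and 105.0 and 65.8 in pair C, so its libraries spread within each pair.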
